A study of Mus musculus with 6 samples.

Results

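The unfolded protein response and the integrated stress response were followed through 33 genes, named by symbol, of the 23282 genes in the count files. They were 15 chaperones and folding enzymes of the endoplasmic reticulum (ER), 5 genes of ER-associated degradation, 4 sensors and transcription factors, and 9 genes of the ATF4 branch. All 33 were found and all 33 passed the filter on low counts. They were taken by name, with no threshold on a measured value, though with earlier results of these data known.

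The ER folds proteins that a cell secretes, and the liver secretes most of the proteins of plasma. When unfolded protein builds up, the membrane sensors IRE1 (*Ern1*), ATF6 (*Atf6*) and PERK (*Eif2ak3*) start the unfolded protein response. IRE1 and ATF6 raise chaperone and degradation genes, through the spliced form of XBP1 and the cleaved form of ATF6. PERK and other kinases that sense amino acid lack, haem lack or viral RNA phosphorylate eIF2alpha, which slows translation in general, favours that of the transcription factor ATF4, and defines the integrated stress response.

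Livers came from 3 wild-type (*Tcf7l2* f/f) mice and 3 knockout (*Alb-Cre;Tcf7l2* f/f) mice, all labelled C57BL/6, at an age of 12 weeks. All had gone without food for 24 h and then had normal chow back for 24 h. Both groups carried the floxed *Tcf7l2* alleles, and the knockouts also carried Cre recombinase driven by the promoter of the hepatocyte gene albumin. The paper describes the ablation as selective for hepatocytes, and whether other liver cells kept the gene was not tested here. *Tcf7l2* encodes a transcription factor of the Wnt pathway. Whole-liver RNA was sequenced as 1 library per mouse, and no unfasted group and no group given an agent that causes ER stress was analysed here. Libraries are called by the numbers in their labels: wild type 7-2, 8-1 and 8-3 and knockout 7-2, 7-3 and 8-3.

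The libraries held 60619938 to 133384586 counts. *Mup* genes, which encode the major urinary proteins, took 31.7% to 54.3% of the counts in wild-type libraries and 18.5% to 28.7% in knockout libraries, and wild type 8-1 stood apart with the most counts and the largest *Mup* share. Levels are therefore given as CPM, counts scaled to a common library total after TMM factors were applied, and the median log2 fold change over all tested genes was −0.02 with these factors and 0.61 when only the raw library totals were used. *Tcf7l2*, the targeted gene, had 4.88, 6.13 and 6.85 CPM in wild type and 3.31, 2.74 and 3.33 CPM in knockout, so the groups did not overlap (log2 fold change −0.93 ± 0.19 (SE); adjusted *p*=0.0856 by edgeR and 0.00283 by DESeq2). Of 14076 genes tested, edgeR called 10 higher in knockout (0.071%) and 53 lower (0.377%), and DESeq2 called 1.38% higher and 1.7% lower. All log2 fold changes below are knockout over wild type, and adjusted *p* values were computed by Benjamini-Hochberg over all 14076 genes.

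None of the 33 genes was called changed by edgeR, which called 0.071% of all genes higher and 0.377% lower. DESeq2 called none of them either, with shares of 1.38% and 1.7% over all genes. With shares this small, a count of 0 does not set apart the 33 genes. At an unadjusted *p* under 0.05 in edgeR, 3 were lower and none was higher, where 6.76% of all genes were lower and 6.7% higher, and the 3 were *Asns*, *Atf5* and *Trib3* of the ATF4 branch. DESeq2 gave 5 lower and 2 higher at the same unadjusted level, where 6.96% of all genes were lower and 6.71% higher. The 2 groups of libraries did not overlap for 6 of the 33, with knockout lower for 5 and higher for 1, and over all genes these shares were 9.08% and 10.2%. The median log2 fold change was −0.14 for the chaperones and −0.09 for the ATF4 branch, beside −0.02 for all genes, and with library sizes alone they were 0.49 and 0.54 beside 0.61. In bulk liver, fewer cells of a type and less RNA per cell cannot be told apart.

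**Figure D1:**
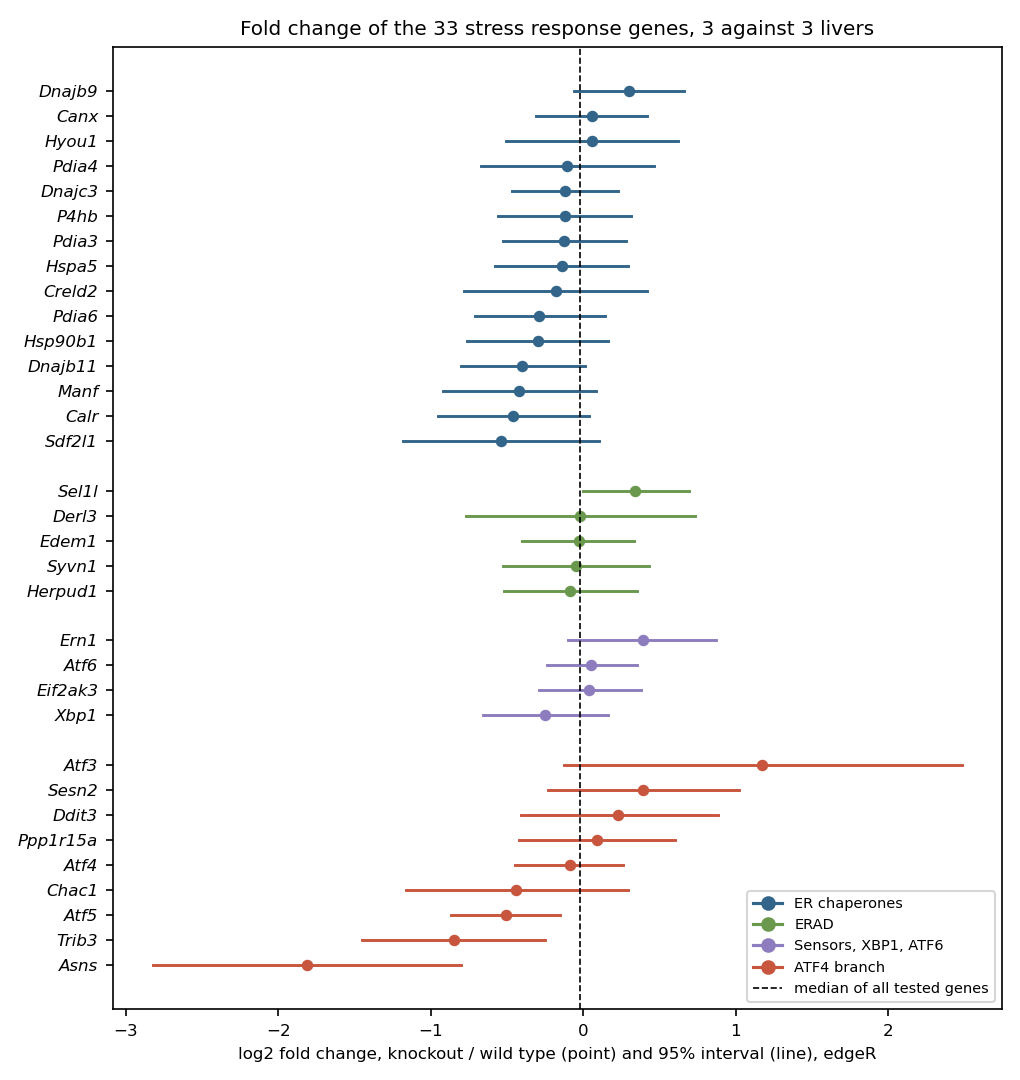
Log2 fold change of each of the 33 genes (point) with its 95% interval (line) from edgeR, 3 knockout against 3 wild-type livers, coloured by group, with the median of all tested genes as a dashed line. The lines of *Asns*, *Trib3* and *Atf5* lie to the left of 0 and those of the other 30 genes reach 0; with library sizes alone the chaperone median was 0.49 in place of −0.14.

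Some promoters of the chaperone and ATF4 groups held the motifs known for these responses. The ER stress response element (ERSE), to which ATF6 binds together with NF-Y, was searched as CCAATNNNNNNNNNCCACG, its second form ERSE-II as ATTGGNCCACG, the XBP1 element (UPRE) as TGACGTGG, and the C/EBP-ATF response element (CARE), to which ATF4 binds, as TGATGNAA. Windows of 250 bases before to 50 bases after the transcript start were taken from RefSeq on GRCm38.p6, both strands were searched, and 30 of the 33 genes had a window. The sequences below are those of the chaperones with the highest levels or with groups that did not overlap, and of every ATF4-branch gene with a match. Capitals mark the fixed letters of each motif, and coordinates are those of the printed bases.
Hspa5, ERSE, chr2:34772020-34772048, plus strand: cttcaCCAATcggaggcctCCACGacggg
Calr, ERSE, chr8:84847070-84847098, plus strand: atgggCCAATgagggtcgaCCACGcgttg
Hsp90b1, ERSE, chr10:86705633-86705661, minus strand: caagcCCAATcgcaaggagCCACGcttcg
Hsp90b1, ERSE, chr10:86705528-86705556, plus strand: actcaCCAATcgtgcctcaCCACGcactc
Dnajb11, ERSE-II, chr16:22857847-22857867, plus strand: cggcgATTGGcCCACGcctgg
Asns, CARE, chr6:7693220-7693237, minus strand: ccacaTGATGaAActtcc
Trib3, CARE, chr2:152344034-152344051, plus strand: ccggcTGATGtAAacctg
Chac1, CARE, chr2:119351044-119351061, minus strand: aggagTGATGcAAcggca
Atf3, CARE, chr1:191183431-191183448, plus strand: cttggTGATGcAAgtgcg

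ERSE was found in 7 of 13 chaperone windows (*Hspa5*, *Hsp90b1*, *Pdia6*, *Dnajc3*, *Creld2*, *Calr* and *Canx*) and in 2 of 5 degradation genes (*Syvn1* and *Derl3*), against 0.137% of 27025 genes with a window. *Hsp90b1* had a match at each of 2 places. ERSE-II was found in *Dnajb11* and *Herpud1*, against 0.0444% of all genes. CARE was found in 4 of 9 ATF4-branch genes (*Asns*, *Trib3*, *Chac1* and *Atf3*) and in *Herpud1*, against 4.51% of all genes. No window of the 33 genes held UPRE (0.714% of all genes) or the TCF/LEF letters CTTTGAT (4.29%) and CTTTGAA (5.93%). The letters of a match describe the window and do not show that a factor bound there. ERSE, ERSE-II, UPRE and CARE were searched because they are known for these responses. Their shares among the 33 genes are therefore a description and not a test. *Hspa5* had its match 65 to 47 bases before the start and *Asns* 23 to 16 bases before it, whereas the matches of *Dnajb11* and *Trib3* lay after the start, within the transcribed part. The 11 genes with ERSE or ERSE-II had a median log2 fold change of −0.14, and the 4 ATF4-branch genes with CARE ran from −1.81 (*Asns*) to 1.17 (*Atf3*).

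**Figure D2:**
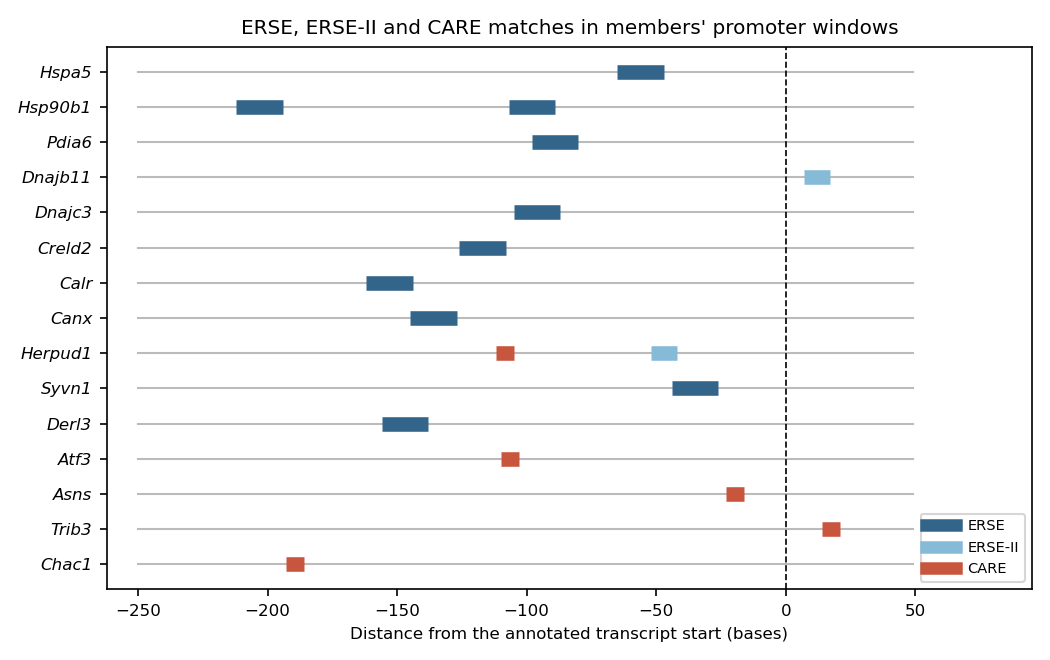
Position of ERSE, ERSE-II and CARE matches in the promoter windows of the 15 genes that had any, in bases from the annotated transcript start (dashed line), with the searched window in grey. ERSE matches sit before the start in chaperone and degradation genes, and CARE matches are in *Herpud1* and 4 ATF4-branch genes.

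The genes covered a wide range of levels. Per kilobase of the Ensembl canonical transcript, wild-type means ran from 931 CPM for *Calr*, the calcium-binding lectin chaperone calreticulin, to 0.264 CPM for *Atf3*, a stress-induced transcription factor. *P4hb* (protein disulphide isomerase) followed at 474 ± 67.0 (SD, *n*=3), *Hsp90b1* (the chaperone GRP94) at 394 ± 66.7, *Hspa5* (the chaperone BiP) at 156 ± 11.9 and *Pdia3* (the disulphide isomerase ERp57) at 141 ± 21.0 CPM per kilobase. Of the 32 neighbouring pairs in this order, 7 had wild-type libraries that did not overlap, among them *Calr* over *P4hb* and *Hsp90b1* over *Hspa5*, and the remaining neighbours overlapped. For *Hspa5* the transcript length of 4953 bases is longer than its whole RefSeq gene on GRCm38.p6 (4440 bases), so its level per length may be set too low. The ATF4 branch was led by *Atf5* at 78.7 ± 10.1 and *Atf4* at 22.3 ± 2.43 CPM per kilobase, and its remaining 7 genes lay at or below 3.32 (*Ddit3*).

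**Figure D3:**
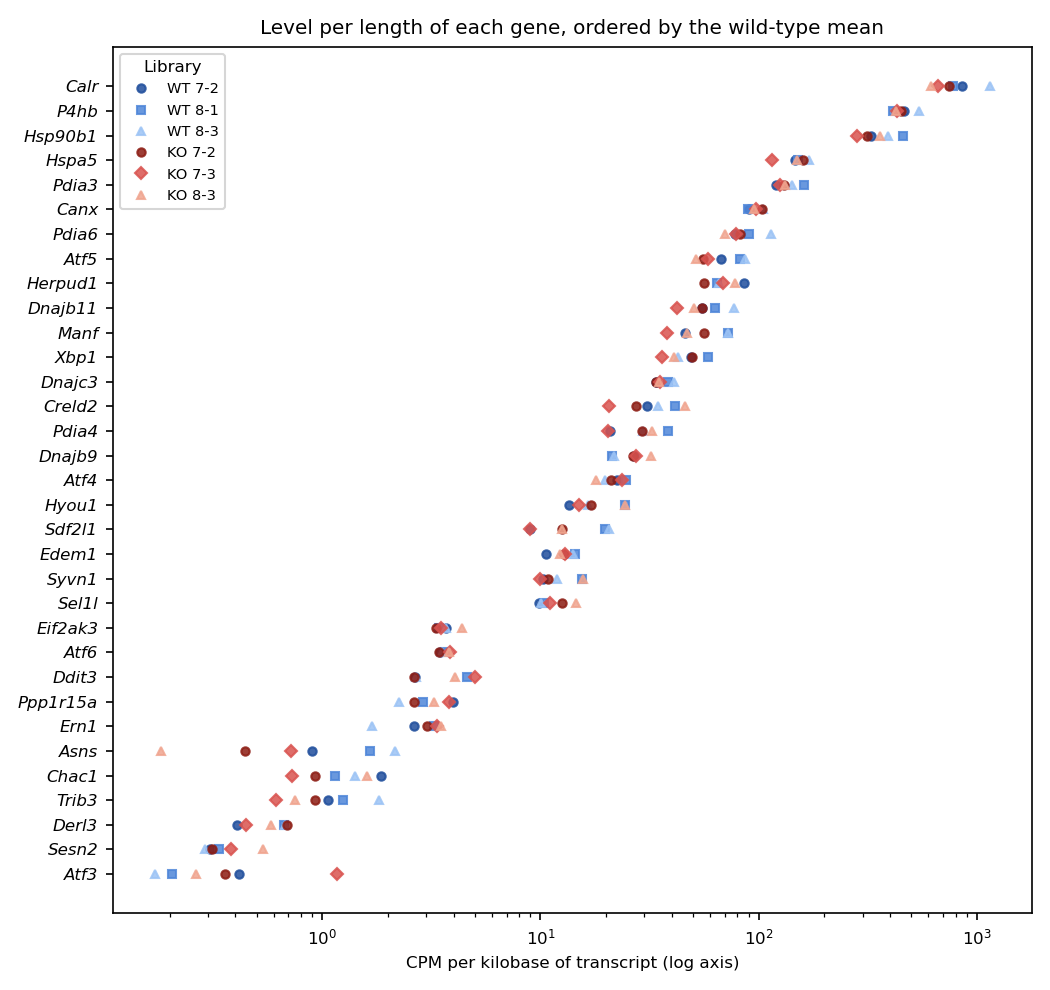
CPM per kilobase of transcript (log axis) of the 33 genes in each of the 6 libraries, ordered from the highest wild-type mean (*Calr*, 931) to the lowest (*Atf3*, 0.264). Symbols of both groups overlap for most genes, and *Asns* spans the widest range.

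*Hspa5*, the ER Hsp70 that binds unfolded chains and holds the sensors inactive, had 730, 753 and 842 CPM in wild type and 788, 570 and 747 CPM in knockout. Knockout 7-3 was the lowest library and the other 2 knockouts lay among the wild types. The log2 fold change was −0.14 ± 0.20 (SE), with a 95% interval from −0.58 to 0.29 (adjusted *p*=0.780). *Hspa5* shares 1921 bases with *Rabepk* (log2 fold change −0.52), and the strand used in counting is not given in the sources used here, so reads from the shared stretch may belong to either gene.

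*Hsp90b1*, the ER Hsp90, had 928, 1300 and 1110 CPM in wild type and 890, 803 and 1020 CPM in knockout, a log2 fold change of −0.30 ± 0.21 (adjusted *p*=0.548). The groups overlapped through wild type 7-2 and knockout 8-3. *Hyou1*, a large Hsp70 relative that serves as exchange factor for BiP, had 60.0, 109 and 73.2 CPM in wild type and 76.2, 66.8 and 109 CPM in knockout, so each group held a library near 109 CPM (log2 fold change 0.06 ± 0.25, adjusted *p*=0.950).

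*Calr* and *Canx* encode the lectin chaperones that hold glycoproteins during folding. *Calr* had 1970, 1780 and 2640 CPM in wild type and 1710, 1520 and 1410 CPM in knockout. Every knockout library lay below every wild-type one, and the largest gap was to wild type 8-3. Its log2 fold change was −0.46 ± 0.22, with an interval from −0.95 to 0.04 (unadjusted *p*=0.0659, adjusted *p*=0.405), and −0.28 without wild type 8-3. *Canx* had 344, 342 and 400 CPM in wild type and 395, 370 and 363 CPM in knockout, which overlapped (0.06 ± 0.17, adjusted *p*=0.918).

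The co-chaperones with a J domain, which pass clients to BiP, did not share a direction. *Dnajb11* (ERdj3) had 110, 126 and 154 CPM in wild type and 110, 84.9 and 101 CPM in knockout, with the 2 libraries numbered 7-2 nearly equal and the rest apart. Its log2 fold change of −0.40 ± 0.18 had the smallest *p* of the chaperones (unadjusted *p*=0.0530, adjusted *p*=0.377), and its interval ran from −0.80 to 0.01. *Dnajb9* (ERdj4) had 66.1, 52.6 and 53.7 CPM in wild type and 65.3, 67.8 and 79.5 CPM in knockout. Only wild type 7-2 reached the knockout range, and the log2 fold change was 0.30 ± 0.16 (adjusted *p*=0.446). *Dnajc3* (p58IPK) had 176 to 212 CPM in wild type and 175 to 183 CPM in knockout (−0.12 ± 0.16, adjusted *p*=0.761).

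Small secreted or luminal proteins that ER stress is known to induce included the chaperones with the widest spread in either group. *Sdf2l1*, a partner of ERdj3, had 10, 21.9 and 23.0 CPM in wild type and 14.0, 9.92 and 14.0 CPM in knockout, and wild type 7-2 lay with the knockouts. *Manf*, a secreted neurotrophic factor kept in the ER by BiP, had 103, 162 and 162 CPM in wild type and 127, 85.9 and 106 CPM in knockout, again with wild type 7-2 among the knockouts. Their log2 fold changes were −0.54 ± 0.29 for *Sdf2l1* (adjusted *p*=0.446) and −0.42 ± 0.22 for *Manf* (adjusted *p*=0.443). With 1 library left out they ran from −0.83 to −0.35 for *Sdf2l1* and from −0.61 to −0.29 for *Manf*, never called. The lowest values were those without wild type 7-2. *Creld2*, a disulphide isomerase, had 43.2, 58.1 and 48.4 CPM in wild type and 38.6, 28.8 and 64.7 CPM in knockout. Knockout libraries held both its lowest and its highest value (−0.18 ± 0.27, adjusted *p*=0.806).

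The disulphide isomerases overlapped between the groups. *P4hb* had 1370, 1210 and 1600 CPM in wild type and 1320, 1270 and 1250 CPM in knockout, and *Pdia4* had 114, 211 and 162 against 161, 112 and 179 CPM. *Pdia3*, which shares 697 bases with *Catsper2* (log2 fold change −0.23), ranged from 441 to 596 CPM in wild type and from 460 to 486 CPM in knockout. *Pdia6*, which also attenuates the IRE1 signal, had 260 to 380 CPM against 233 to 273 CPM. Their log2 fold changes were −0.12 (*P4hb*), −0.11 (*Pdia4*), −0.13 (*Pdia3*) and −0.29 (*Pdia6*), with adjusted *p* from 0.532 to 0.890.

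Over the 15 chaperones, 12 log2 fold changes were below 0 and 3 above (*Dnajb9*, *Hyou1* and *Canx*), and 12 were below the median of all genes under TMM scaling as well as with library sizes alone, where no chaperone was below 0. The share above 0 among all genes was 47.9%. Under TMM scaling, every chaperone's 95% interval held 0, and 14 of 15 intervals lay within −1 and 1. Under that scaling a 2-fold difference lay outside each of them but that of *Sdf2l1*, whose interval reached −1.18. With library sizes alone, where the chaperone median was 0.49, such intervals were not computed. The highest upper bound under TMM scaling was 0.66 (*Dnajb9*). Within libraries whose label began with 7 (1 wild type, 2 knockouts) the chaperone median was 0.02 with 6 of 15 below 0, and within those beginning with 8 (2 wild types, 1 knockout) it was −0.18 with 12 of 15 below 0, values that have no test. The labels do not say what the leading number stands for.

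The summed level of the 15 chaperones was 6730, 7230 and 8380 CPM in wild type and 6630, 5900 and 6350 CPM in knockout. Wild type 8-3 held the highest value of 9 of the 15 genes, and knockout 7-3 the lowest of 7. The median over the 15 genes, as log2 CPM minus the wild-type mean of log2 CPM, was −0.22, 0.03 and 0.12 in wild type 7-2, 8-1 and 8-3 and −0.14, −0.44 and −0.10 in knockout 7-2, 7-3 and 8-3. Wild type 7-2 thus sat below 2 of the knockouts. The chaperone median log2 fold change was −0.16 without wild type 8-1, −0.12 without knockout 7-3 and −0.27 without wild type 7-2.

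**Figure D4:**
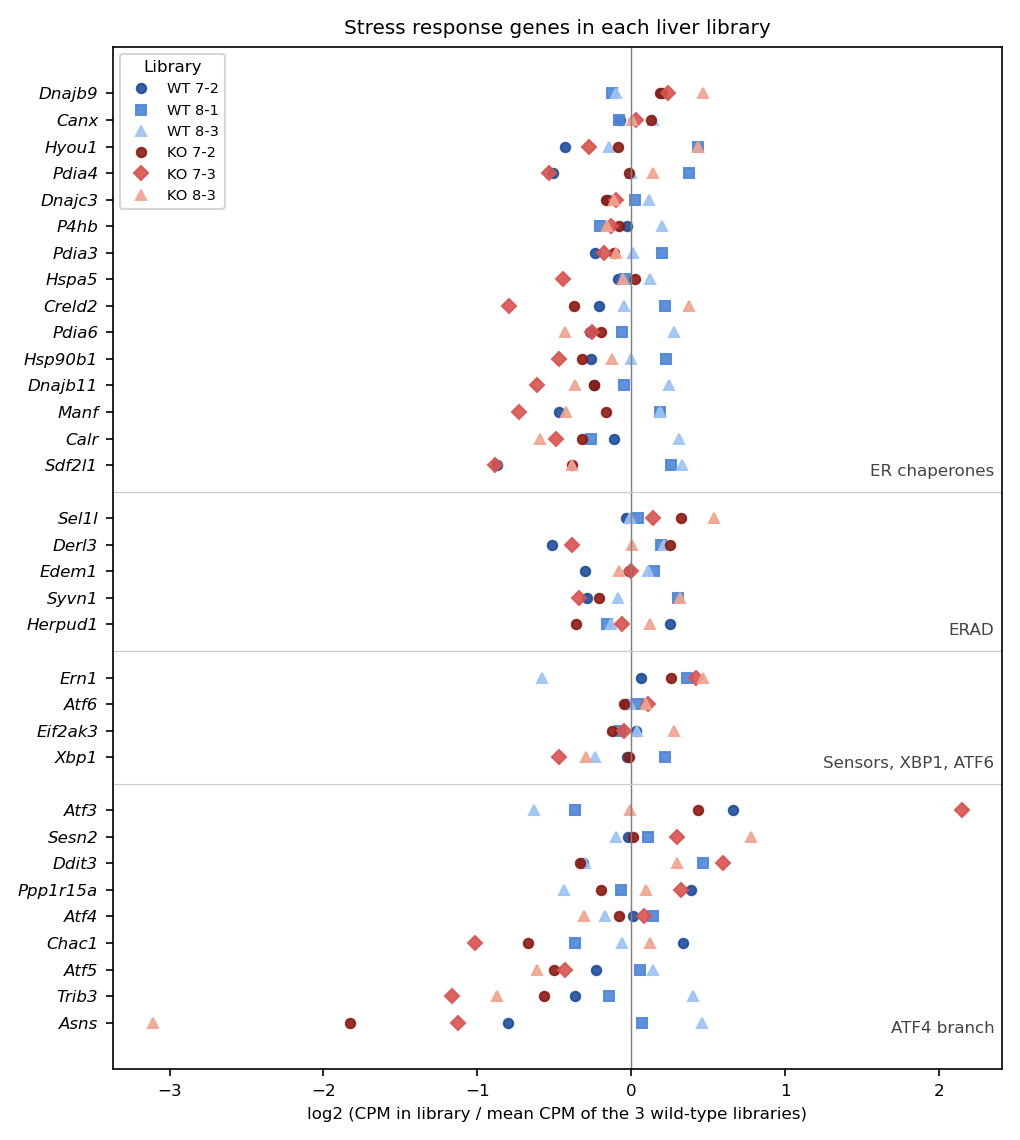
Level of each gene in each library as log2 of its CPM over the mean of the 3 wild-type libraries, with blue symbols for wild type and red for knockout, in the 4 gene groups. The chaperone symbols of both colours overlap for 13 of 15 genes (all but *Calr* and *Dnajb11*), *Asns* spreads furthest to the left with knockout 8-3, and *Atf3* furthest to the right with knockout 7-3; with library sizes alone the knockout symbols would sit further right.

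ER-associated degradation returns misfolded proteins to the cytosol for the proteasome. *Sel1l*, the scaffold of the HRD1 ligase, had 62.4, 65.9 and 63.7 CPM in wild type and 79.9, 70.5 and 93.0 CPM in knockout. All knockout libraries lay above all wild-type ones, and it was the only one of the 33 genes with that order. The log2 fold change was 0.34 ± 0.15, with an interval from 0.00 to 0.69 (unadjusted *p*=0.0522, adjusted *p*=0.375). *Syvn1*, the HRD1 ligase itself, had 35.8, 54.0 and 41.2 CPM in wild type and 37.7, 34.5 and 54.5 CPM in knockout, which overlapped fully (−0.05 ± 0.22, adjusted *p*=0.950). *Herpud1*, an adaptor of that ligase, had 267, 201 and 205 against 175, 215 and 244 CPM, and *Edem1*, a lectin that marks glycoproteins for removal, had 63.6, 86.6 and 84.3 against 77.4, 78.0 and 74.1 CPM. Neither separated the groups (−0.09, adjusted *p*=0.881, and −0.03, adjusted *p*=0.957). *Derl3*, a derlin of secretory cells, was low at 0.542 to 0.921 CPM over all 6 libraries (−0.02 ± 0.34, adjusted *p*=0.987).

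Transcripts of the sensors overlapped between the groups. *Atf6* had 26.2, 27.6 and 26.6 CPM in wild type and 25.9, 28.9 and 28.6 CPM in knockout, with an interval of the log2 fold change from −0.24 to 0.35 (adjusted *p*=0.894). *Eif2ak3* had 16.8, 15.6 and 16.9 against 15.1, 15.9 and 19.9 CPM, with knockout 8-3 the highest (adjusted *p*=0.930). *Ern1* had 18.4, 22.7 and 11.8 CPM in wild type and 21.1, 23.6 and 24.4 CPM in knockout. Wild type 8-3 was the lowest and the other 2 wild types lay close to or among the knockouts (0.39 ± 0.22, adjusted *p*=0.469, and 0.16 without wild type 8-3). *Xbp1* had 96.8, 115 and 83.9 CPM in wild type and 97.7, 71.1 and 80.3 CPM in knockout (−0.25 ± 0.18, adjusted *p*=0.579). Gene counts do not tell spliced from unspliced *Xbp1*, nor the active from the inactive form of the sensors.

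The ATF4 branch held the largest log2 fold changes of the 33 genes on either side of 0. *Asns*, asparagine synthetase, had 4.41, 8.08 and 10.6 CPM in wild type and 2.17, 3.52 and 0.894 CPM in knockout. Every knockout library lay below every wild-type one, and the ratio of highest to lowest library was 11.8. The log2 fold change was −1.81 ± 0.45, which is 3.51-fold lower, with an interval from −2.82 to −0.80 (unadjusted *p*=0.00256, adjusted *p*=0.140, and 0.0938 by DESeq2). It was below 0 in all 17 alternative analyses, from −2.32 to −1.17, and was called in 1 of them, with library sizes alone (adjusted *p*=0.0291), against adjusted *p* from 0.0721 to 0.384 in the rest. Leaving out wild type 8-1 gave −1.77 and leaving out knockout 8-3, the lowest library, gave −1.44. Within labels beginning with 7 the log2 difference was −0.67 and within those beginning with 8 it was −3.33.

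*Trib3*, a pseudokinase that ATF4 induces and that binds AKT, had 2.23, 2.60 and 3.79 CPM in wild type and 1.94, 1.28 and 1.57 CPM in knockout. The groups did not overlap, with a narrow gap between wild type 7-2 and knockout 7-2. The log2 fold change was −0.85 ± 0.27, with an interval from −1.45 to −0.25 (unadjusted *p*=0.0106, adjusted *p*=0.223). *Atf5*, a transcription factor related to ATF4, had 122, 149 and 158 CPM in wild type and 101, 106 and 93.6 CPM in knockout. Here too all knockouts were below all wild types, and the 3 knockouts lay within 1.13-fold of each other. The log2 fold change was −0.51 ± 0.16, with an interval from −0.87 to −0.15 (unadjusted *p*=0.0104, adjusted *p*=0.221), DESeq2 gave the smallest adjusted *p* of any of the 33 genes (0.0633), and with library sizes alone the value was 0.13. *Atf5* shares 571 bases with *Nup62* (log2 fold change −0.32), which carries the same uncertainty.

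*Atf4* itself had 39.1, 42.9 and 34.5 CPM in wild type and 36.7, 41.1 and 31.4 CPM in knockout. The groups overlapped, and the interval of its log2 fold change (−0.09 ± 0.16) ran from −0.45 to 0.26 (adjusted *p*=0.835). ATF4 is set mainly by translation, which RNA counts do not show. *Ddit3*, the transcription factor CHOP, had 2.90, 4.97 and 2.92 CPM in wild type and 2.86, 5.44 and 4.42 CPM in knockout, and each group spanned nearly the same range (0.23 ± 0.29, adjusted *p*=0.753). *Chac1*, which degrades glutathione, had 3.10, 1.90 and 2.35 against 1.54, 1.21 and 2.67 CPM (−0.44 ± 0.32, adjusted *p*=0.581), and *Ppp1r15a* (GADD34), which brings the phosphatase to eIF2alpha, had 9.25, 6.75 and 5.22 against 6.16, 8.86 and 7.57 CPM (0.09 ± 0.23, adjusted *p*=0.896). Both overlapped, and *Ppp1r15a* shares 730 bases with *Tulp2* (log2 fold change 0.64). *Sesn2*, which restrains mTORC1, had 1.07, 1.17 and 1.01 CPM in wild type and 1.09, 1.33 and 1.86 CPM in knockout (0.39 ± 0.28, adjusted *p*=0.564). With 1 library left out the log2 fold change ran from −0.83 to −0.22 for *Chac1*, from 0.01 to 0.55 for *Ddit3* and from 0.15 to 0.56 for *Sesn2*.

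*Atf3* had 0.828, 0.406 and 0.338 CPM in wild type and 0.708, 2.32 and 0.522 CPM in knockout. Knockout 7-3 was alone above 1 CPM and the other 2 knockouts lay within the wild-type range. Its log2 fold change of 1.17 ± 0.58 had an interval from −0.13 to 2.48 (adjusted *p*=0.417), and it was 0.24 without knockout 7-3. *Atf3* is also an immediate early gene, and the same library held the most *Fos* (4.10 CPM against 0.191 to 0.720 in the others), *Jun* (13.9 against 2.32 to 7.61) and *Dusp1* (13 against 2.74 to 8.07). *Fos*, *Jun* and *Dusp1* had the smallest *p* of the immediate early list in edgeR, and other genes of that list were highest in wild type 7-2. Over 12 immediate early genes, the summed level was 85.2 CPM in knockout 7-3 and highest in wild type 7-2 at 102 CPM, and the part of these genes in the *Atf3* value was not tested.

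Of the 9 ATF4-branch genes, 3 had knockout below wild type in every library and none above, beside 9.08% and 10.2% of all genes. The 9 genes had 5 log2 fold changes below 0 and 4 above, and 6 intervals that held 0. Their per-library medians against the wild-type mean were −0.02, 0.07 and −0.09 in wild type and −0.28, 0.09 and 0.10 in knockout, so knockout 7-2 was the lowest library and the other 2 knockouts the highest. Within labels beginning with 7 the median was −0.24 with 6 of 9 below 0, and within those beginning with 8 it was 0.21 with 4 of 9 below 0. The median log2 fold change of the branch, −0.09 over all libraries, was 0.00 without knockout 8-3, −0.01 without wild type 8-1, −0.18 without wild type 8-3 and −0.19 without knockout 7-3.

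Other ATF4 targets outside the 33 genes were read from a list of 24 genes, of which 22 were tested. Their median log2 fold change was −0.28, with 15 below 0, none called by edgeR, 3 lower at an unadjusted *p* under 0.05, and 6 with knockout below wild type in every library, beside 6.76% and 9.08% of all genes. DESeq2 called 3 lower, beside 1.7% of all genes, *Mthfd2*, *Vldlr* and *Psph*. *Mthfd2*, a mitochondrial folate enzyme, had 1.41, 4.32 and 2.37 CPM in wild type and 0.886, 1.04 and 0.754 CPM in knockout (−1.60 ± 0.39, adjusted *p*=0.132 by edgeR and 0.00253 by DESeq2). *Psph*, the last enzyme of serine synthesis, had 8.34, 9.25 and 6.28 against 3.98, 5.97 and 2.81 CPM (−0.91 ± 0.27, adjusted *p*=0.198 by edgeR and 0.0402 by DESeq2). *Vldlr*, a lipoprotein receptor, was low, with 0.211 to 0.370 CPM in wild type and 0.0348 to 0.0590 CPM in knockout (−2.65 ± 0.54, adjusted *p*=0.0856 by edgeR and 0.0297 by DESeq2).

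Of the 12 cytosolic tRNA synthetases that ATF4 is known to induce, 11 had a log2 fold change below 0 and 1 above, with a median of −0.33. Among all genes, 47.9% were above 0. Of the 12: none was called by edgeR, 5 were lower at an unadjusted *p* under 0.05, and 5 had knockout below wild type in every library, beside 6.76% and 9.08% of all genes. *Cars*, the cysteine enzyme, had 48.5, 42.9 and 38.9 CPM in wild type and 29.9, 27.1 and 29.5 CPM in knockout, with a wide gap between the groups (−0.59 ± 0.14, adjusted *p*=0.137 by edgeR and 0.0216 by DESeq2). It was the only one of the 12 that DESeq2 called, beside 1.7% of all genes called lower. *Yars* (−0.49, adjusted *p*=0.166) and *Wars* (−0.53, adjusted *p*=0.203) were lower in every knockout library than in any wild-type one. The lists of tRNA synthetases and of other ATF4 targets were chosen with earlier results of these data known. Their counts beside the shares of all genes are therefore a description and not a test.

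The remaining 4 lists of these pathways had medians from −0.19 to 0.01, beside −0.14 for the chaperones and −0.02 for all genes. For 18 other folding and redox enzymes the median was −0.12 with 13 below 0, and those with the smallest *p* were *Ero1l*, the oxidase that recharges the isomerases (0.39, adjusted *p*=0.296), *Erp29* (−0.44, adjusted *p*=0.340) and *Dnajc10* (−0.40, adjusted *p*=0.384). For 18 genes of translocation and signal peptide cleavage it was −0.19 with 16 below 0, led by *Ssr2* (−0.57, adjusted *p*=0.208), *Sec11c* (−0.36, adjusted *p*=0.267) and *Sec61a1*, the pore itself (−0.30, adjusted *p*=0.449). For 18 other degradation genes it was 0.01 with 9 below 0, led by *Vimp* (−0.54, adjusted *p*=0.193), and for 16 other sensors and kinases −0.01 with 9 below 0, led by *Creb3* (−0.59, adjusted *p*=0.197). None of the genes in these 4 lists was called by edgeR or by DESeq2.

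**Figure D5:**
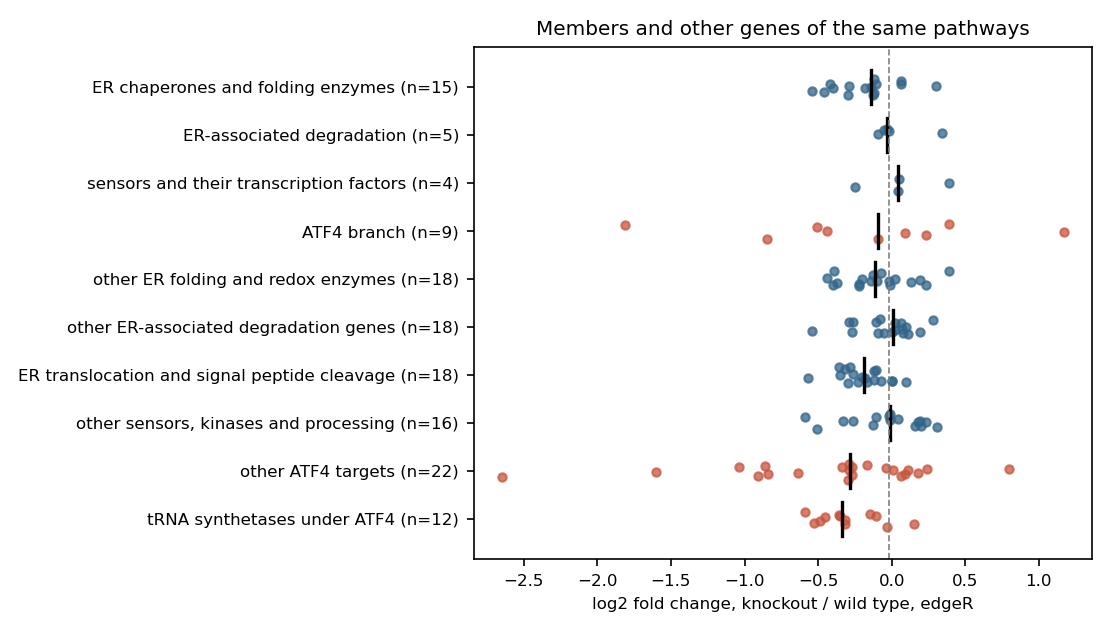
Log2 fold change (edgeR) of every tested gene in the 4 groups and in 6 further lists of the same pathways, one point a gene, with the list median as a black bar and the median of all tested genes as a dashed line. The medians run from −0.33 (tRNA synthetases) to 0.05 (sensors), and the ATF4 lists reach furthest to the left; with library sizes alone the median of all genes was 0.61.

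Stress programmes outside the ER showed no called gene in edgeR. The median was −0.05 for 8 mitochondrial chaperones and proteases (*Clpp* −0.38, *Hspe1* −0.34 and *Clpx* −0.17), 0.06 for 10 cytosolic heat shock genes (*Bag3* 0.47, *Hspb1* −0.58 and *Dnajb1* −0.51) and 0.11 for the 11 immediate early genes tested. Of these, DESeq2 called *Jun* higher (1.44, adjusted *p*=0.00311), where it called 1.38% of all genes higher and 1.7% lower. Summed over the 10 heat shock genes, wild type 7-2, 8-1 and 8-3 had 3370, 1840 and 1610 CPM. Knockout 7-2, 7-3 and 8-3 had 2020, 2670 and 2240 CPM for the same genes. For 12 genes of fasting and feeding the median was 0.23, and *Srebf1*, which feeding is known to raise, was called higher by DESeq2 (0.90, adjusted *p*=0.00283), whereas *Igfbp1*, which fasting is known to raise, was at −1.26 (adjusted *p*=0.343 by DESeq2). The 7 hepatocyte markers tested summed to 61800 to 89900 CPM, with a median of −0.06. DESeq2 called 1 of them lower, *Fgb* (−0.88, adjusted *p*=0.0111), beside 1.7% of all genes.

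For markers of cells other than hepatocytes, edgeR called no gene. DESeq2 called 3, all higher in knockout and all among the 10 stellate cell markers, beside 1.38% of all genes. The 10 sinusoidal endothelial markers had log2 fold changes that were all above 0 (median 0.36), with summed levels of 78.6 to 86.9 CPM in wild type and 99.3 to 101 CPM in knockout, and 7 of 10 stellate cell markers were above 0 (median 0.58), with 53.8 to 67.2 against 83.5 to 88.8 CPM. Kupffer cell markers had a median of −0.22 and cholangiocyte markers of −0.67, and the summed levels overlapped. The part of these cells in the values of the 33 genes was not tested. For secretory cells rich in ER, plasma and B cell markers summed to at most 0.827 CPM with 2 or 3 of 8 genes at 0, and pancreatic acinar markers to at most 6.36 CPM with 5 to 9 of 12 genes at 0 and most of the sum from *Cela1* (3.58 to 5.30 CPM over the 6 libraries). The median was −0.36 for 5 red cell markers and −0.52 for 3 neutrophil markers, and the summed levels of both overlapped between the groups.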

How the data were processed

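Whole-liver RNA of 3 wild-type and 3 knockout mice was sequenced, and each library was taken as 1 mouse. The files deposited by the authors hold raw counts per gene, whole numbers whose totals differ from library to library. The submitters' processing notes list TopHat and mm10, and the study's methods name Bedtools for counting unique and multiple alignments. Reads of multiple alignments can be shared between near-identical genes. Neither the gene annotation nor the counting strand is given in the sources used here, and the deposited counts do not carry the quantile normalisation of the methods.

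Both groups were fitted in edgeR 4.0.16 (R 4.3.3) with its quasi-likelihood test, genotype as the single term, TMM factors and filterByExpr (min.count 10, min.total.count 15). This left 14076 genes. Calls needed a Benjamini-Hochberg adjusted *p* under 0.05. CPM use TMM-scaled library sizes. Per-library totals of 60619938 to 133384586 counts set the precision, and the biological coefficient of variation was 23.9%. No 2 libraries were copies of each other (smallest chi-square per degree of freedom 188, over genes with at least 10 counts). The labels do not say that the mice came from separate litters, so *p*-values measure only the spread between these 6 samples. The edgeR fit was tested on simulated data.

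Lengths are exons of the Ensembl canonical transcript in GENCODE M39, and promoters and gene positions are RefSeq's on GRCm38.p6, whose primary assembly is that of mm10. All 33 genes are named, and of the other lists (other folding and redox enzymes, other degradation genes, translocation, other sensors and kinases, other ATF4 targets, tRNA synthetases, mitochondrial chaperones, heat shock, immediate early, fasting and feeding, and markers of hepatocytes, plasma and B cells, acinar cells, Kupffer cells, endothelium, stellate cells, cholangiocytes, neutrophils and red cells) up to 3 genes with the smallest *p*. A gene that this rule takes is not reported here. The genes and lists were chosen with earlier results of these data known. Alternatives changed the scaling (RLE factors, upper-quartile factors, library sizes alone, or factors without the *Mup* genes), the test (DESeq2 1.42.0, voom, or quantile-normalised log2 counts in limma 3.58.1), the filter (none, or a normalised log2 count averaging 5 or more) and the samples (a library left out, or a replicate block on the label numbers).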

Additional observations from a re-analysis of the deposited data

How the results depend on the processing

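None of the 33 genes was called in 16 of 17 alternatives. With library sizes alone, where the median of all genes was 0.61, 6 of the 33 were called higher (*Dnajb9*, *Sel1l*, *Ern1*, *Ddit3*, *Atf3* and *Sesn2*) and 1 lower (*Asns*, −1.17). Of all 14076 genes tested in this setting, 2936 were called higher and 88 lower. Its medians were 0.49 for the chaperones and 0.54 for the ATF4 branch. This setting also turned the sign of *Hspa5* (0.50), *Hsp90b1* (0.37), *Pdia3* (0.53), *Pdia4* (0.60), *Pdia6* (0.35), *P4hb* (0.49), *Dnajb11* (0.25), *Dnajc3* (0.51), *Sdf2l1* (0.17), *Creld2* (0.49), *Manf* (0.27), *Calr* (0.16), *Herpud1* (0.50), *Edem1* (0.62), *Syvn1* (0.63), *Derl3* (0.67), *Xbp1* (0.42), *Atf4* (0.54), *Atf5* (0.13) and *Chac1* (0.15). Quantile normalisation with limma gave *Herpud1* 0.00, *Edem1* 0.01 and *Derl3* 0.01. The labels share the numbers 7-2 and 8-3 between the groups, and the deviations of same-numbered libraries from their group means correlated at 0.00795 and −0.00686. Differently numbered libraries were not compared, so these values can neither show nor exclude that the numbers pair mice. The paper describes its wild-type mice as littermates of the knockouts, and no label says which mice shared a litter. The replicate block on the leading number turned *Pdia4* (0.10), *Edem1* (0.04), *Syvn1* (0.10) and *Derl3* (0.13), and the replicate block on the full number in 4 libraries turned *Pdia3* (0.01), *Pdia4* (0.32), *Creld2* (0.13), *Edem1* (0.05), *Syvn1* (0.24), *Derl3* (0.27) and *Ppp1r15a* (−0.03); neither called any of the 33. With each library left out in turn, the sign turned for *Hyou1* (−0.18 to 0.34), *Pdia4* (−0.30 to 0.14), *Creld2* (−0.57 to 0.05), *Herpud1* (−0.20 to 0.06), *Edem1* (−0.16 to 0.06), *Syvn1* (−0.27 to 0.14), *Derl3* (−0.22 to 0.13), *Eif2ak3* (−0.09 to 0.12), *Atf4* (−0.19 to 0.00) and *Ppp1r15a* (−0.09 to 0.33). *Asns*, *Trib3*, *Dnajb9*, *Canx*, *Sel1l*, *Atf6*, *Ern1*, *Ddit3*, *Atf3* and *Sesn2* kept their sign in all 17. Over all genes, 10 were called higher and 53 lower. The counts were 194 and 239 with DESeq2, 2936 and 88 with library sizes alone, 3 and 29 with quantile normalisation, 6 higher with limma-voom, 23 higher with no filter, 6 and 33 with the leading number as replicate block, 33 lower with the full number as block, and 3 to 18 higher and 21 to 69 lower with a library left out. The cause of these differences was not tested. The largest standard errors of a log2 fold change among the 33 were those of *Atf3* (0.58), *Asns* (0.45) and *Derl3* (0.34), all with under 11 CPM in every library.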
